A study of Mus musculus with 2 samples.

Results

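The Ly6 family surface proteins were followed in ileal epithelium of WT and Tipe0-/- mice by single-cell RNA-seq, through the 7 genes Ly6a, Ly6e, Ly6c1, Ly6d, Ly6g6f, Ly6g6d and Lypd8 out of 27998 genes in the count matrices. Members were chosen by gene symbol within the family, so that Ly6a, already known to be lower in the Tipe0-/- library, could be set beside its relatives. Every difference between the genotypes given here comes from the contrast that prompted this choice, and is therefore a description. By RT-PCR of isolated enterocytes and healthy ileal tissue, the study reports Ly6a as higher in Tipe0-/-. It also reports more of its protein, Sca-1, by flow cytometry and staining, but fewer fetal-like stem cells in its single-cell data. The difference in direction between those assays and the counts below was not tested. Of the 7 members, 6 reached the minimum of 50 UMIs over both libraries together, a UMI (unique molecular identifier) being a tag that marks 1 captured RNA molecule, and Ly6c1 did not.

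The 2 libraries came from C57BL/6 mice of 8 weeks. One held cells of wild-type animals and the other cells of animals lacking TNFAIP8, also called TIPE0, a lipid transport protein that acts on phosphoinositide signalling. The tissue label of both was enterocyte from the ileum, and the cells were captured in droplets after enzymatic digestion. The sources differ on the material: the labels' protocol speaks of enteroids taken with EDTA and treated with Collagenase and Dispase, whereas the study's methods speak of isolated enterocytes treated with DNAse I and Dispase. The study presents these data as a profile of the gut epithelium of undamaged mice. Lymphocyte-like cells were also among the cells sequenced (92 in WT and 17 in Tipe0-/-). The labels' wording and the enzymes used were not resolved further here. There was 1 library for each genotype. For the single-cell data the study states that cells of 3 mice a genotype were pooled before sequencing, so the spread between mice cannot be seen, no p-value was computed, and all intervals below are 95% intervals of counting error alone.

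Ly6 proteins are small, disulphide-rich proteins with a 3-finger fold, and most are held on the outer face of the cell membrane by a glycosylphosphatidylinositol (GPI) lipid anchor. Ly6a encodes Sca-1, known as a marker of haematopoietic stem cells and of activated lymphocytes, and known to be induced by interferons and in regenerating gut epithelium. Ly6e, also interferon-inducible, is known for its effects on virus entry. Lypd8 is secreted into the intestinal lumen, where it binds the flagella of bacteria and keeps them away from the epithelium.

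Of the members, 4 lie in the Ly6 cluster of chromosome 15 in the mouse genome (GRCm38, GENCODE vM21). Ly6a spans chr15:74994877-74998031 on the minus strand and Ly6e chr15:74955051-74959905 on the plus strand. Ly6d (chr15:74762056-74763620) and Ly6c1 (chr15:75044018-75048830), both on the minus strand, mark the ends of a block of 287 kb with 12 protein-coding genes, 8 of them in the family lists used here. Ly6g6d (chr17:35071443-35078065) and Ly6g6f (chr17:35080480-35085610) are neighbours on the minus strand of chromosome 17 within the major histocompatibility complex, and Lypd8 stands alone on chromosome 11 (chr11:58379043-58390728, plus strand). In RefSeq, Ly6g6d reaches to position 35081239 and so overlaps Ly6g6f on the same strand, which makes reads of that stretch uncertain between them. Of the 50-base words in the last 500 bases of the Ly6a transcripts, 8.13% also occur in transcripts of other genes, among them Ly6c1, Ly6c2 and Ly6i. For Ly6c1 the share is 29.2%, and for the other 5 members it is 0%.

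RefSeq promoter windows were at hand for 4 of the 7 members (Ly6c1, Ly6g6d, Ly6g6f and Lypd8). The 250 bases before a start site are shown for the 3 of them with more than 50 UMIs, since Ly6g6f and Ly6g6d shared their cell type while Lypd8 did not. Capitals mark the octamer (ATGCAAAT on either strand), the motif of POU factors such as the tuft cell regulator POU2F3, and a TATA box (TATANAA on either strand). The Ly6g6d window shown lies before the outermost of its 3 start sites, inside the body of Ly6g6f.
Ly6g6d, chr17:35081240-35081489, minus strand: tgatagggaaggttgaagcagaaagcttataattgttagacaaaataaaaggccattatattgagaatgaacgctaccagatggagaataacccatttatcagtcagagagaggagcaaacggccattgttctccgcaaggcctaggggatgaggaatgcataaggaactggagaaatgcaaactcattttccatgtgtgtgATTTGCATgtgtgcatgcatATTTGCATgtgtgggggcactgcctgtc
Ly6g6f, chr17:35085596-35085845, minus strand: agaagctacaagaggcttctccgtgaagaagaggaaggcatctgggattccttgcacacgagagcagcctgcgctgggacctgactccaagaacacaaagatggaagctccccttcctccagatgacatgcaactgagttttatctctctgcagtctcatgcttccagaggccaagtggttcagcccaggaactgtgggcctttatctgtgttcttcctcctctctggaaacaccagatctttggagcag
Lypd8, chr11:58378782-58379031, plus strand: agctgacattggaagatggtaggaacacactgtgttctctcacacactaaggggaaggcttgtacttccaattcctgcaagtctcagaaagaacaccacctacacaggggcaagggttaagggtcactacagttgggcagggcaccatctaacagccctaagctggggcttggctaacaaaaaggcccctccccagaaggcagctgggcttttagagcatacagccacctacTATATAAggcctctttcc

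The octamer was searched for after the Ly6g6d window had been read. It occurred 2 times there and in no other window of the members, whereas 1.6% of all 32851 windows held it at least once and 0.0974% at least 2 times. The TATA box of Lypd8 was in the window shown and not in that of its other start site (chr11:58380396-58380645). This motif is held by 10.4% of windows. The core of the interferon response element (GAAA, any 2 bases and GAAA, in 2.98% of windows) and the gamma activated site (TTCNNNGAA, in 7.02%), both searched on either strand, were in none of the windows of these 4 members. A match or its absence describes these letters only.

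The WT library held 3402 cells with 38127808 UMIs (median 7760 per cell) and the Tipe0-/- library 2006 cells with 23897126 UMIs (median 7307.5 per cell), and 9 cell barcodes occurred in both. Mitochondrial genes took 6.59% of WT and 8.56% of Tipe0-/- UMIs. Tnfaip8 itself had 372 UMIs in WT, or 9.76 counts per 1000000 UMIs of the library (CPM), and 57 UMIs or 2.39 CPM in Tipe0-/-. The deleted part of the gene is not given in the sources used here, and counts from the 3′ end check the label only where that end is lost. Nnt, which is known to differ between C57BL/6 substrains, had 12.2 CPM in WT and 41.1 CPM in Tipe0-/-. The part of substrain in the values below was not tested. Epithelial markers summed to 9308 CPM in WT and 8963 CPM in Tipe0-/-, and all 10 were present. The 8 T cell markers in the matrix summed to 105 CPM in WT and 20.8 CPM in Tipe0-/-, and 7 of 8 were at least 2-fold lower, among them Gzma (granzyme A, log2 ratio -2.46), Gzmb (granzyme B, -3.06), Nkg7 (-2.31) and Cd3e (part of the T cell receptor complex, -1.70). The 7 B cell and plasma cell markers summed to 33.7 and 16.7 CPM, of which 4 were at least 2-fold lower, among them Ms4a1 (-1.50), Mzb1 (-1.93) and Pax5 (-1.28). Myeloid markers summed to 20.1 and 19.9 CPM, with Tyrobp at -1.57 and Itgam, Lyz2 and Fcer1g at 0.21, 0.81 and -0.74. Endothelial markers summed to 5.09 and 4.31 CPM with Cdh5, Kdr, Emcn and Eng at 0 UMIs (Egfl7 -0.30, Esam -0.04), and fibroblast markers to 2.86 and 1.84 CPM with Pdgfra, Dpt, Pi16 and Postn at 0 UMIs (Dcn -0.58).

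Cells were grouped by clustering without the family and without the genes of the study's genotype comparison, which gave 13 clusters. From fixed markers, 11 of them were named: enterocyte-like (941 WT and 464 Tipe0-/- cells in 3 clusters), goblet-like (750 and 517, in 3 clusters), cycling-like (415 and 236), stem-like (306 and 253), Paneth-like (282 and 140), tuft-like (158 and 50) and lymphocyte-like (92 and 17). An enterocyte-like cluster led by Slc40a1 and Apol10a had Ly6a itself among its 10 leading genes. The remaining 2 clusters had too few markers of their best-scoring class for a name. One was led by Dtl and Uhrf1, genes of DNA replication and its chromatin (314 and 252 cells). Its best-scoring class was stem (1 of 14 markers), but its 10 leading genes included the cycling markers Mcm6 and Pcna. The other was led by Akr1c19 and the gasdermin gene Gsdmc3 (144 and 77 cells). Fewer tuft-like (2.49% against 4.64%) and lymphocyte-like cells (0.847% against 2.7%) were in the Tipe0-/- library than in WT.

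Ly6a had the largest difference of the 6 members. It had 8111 UMIs in WT and 721 in Tipe0-/-, that is 213 CPM (interval 208 to 217) and 30.2 CPM (28.0 to 32.5), a 7.05-fold lower level. The log2 ratio of Tipe0-/- over WT was -2.82 (interval -2.93 to -2.71), with 0.5 UMI added to each sum. Ranked from the lowest ratio, it was number 21 of the 11665 genes with at least 50 UMIs, and number 4 of the 1246 of these with at least 100 CPM in either library. Across all 11665 genes the median log2 ratio was 0.15 and 69.3% of genes were above 0. When the libraries were scaled to a median of 0, that share was 50% and Ly6a stood at -2.97.

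The remaining 5 members with at least 50 UMIs were lower too, by less. Ly6g6f, a member with an immunoglobulin-like domain, had 251 UMIs in WT and 44 in Tipe0-/- (log2 ratio -1.82, interval -2.33 to -1.37). Its neighbour Ly6g6d had 151 and 39 UMIs (-1.27, interval -1.83 to -0.76). Lypd8 had 85640 UMIs or 2246 CPM in WT and 30065 UMIs or 1258 CPM in Tipe0-/-, a log2 ratio of -0.84 (interval -0.86 to -0.82).

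Ly6e had 7033 and 2497 UMIs, or 184 and 104 CPM (-0.82, interval -0.89 to -0.75). Ly6d, known as a marker of early B cells and of stratified epithelia, had 203 and 78 UMIs (-0.70, interval -1.10 to -0.32). Ly6c1, known from endothelium and lymphocytes, had 3 UMIs in WT and 0 in Tipe0-/-, too few for a ratio, in a preparation in which the endothelial genes Cdh5 and Kdr were at 0. A ratio of at least 2-fold lower was thus reached by 3 of 6 members (Ly6a, Ly6g6f and Ly6g6d), beside 2.43% of all genes tested. The median of the 6 log2 ratios was -1.05.

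**Figure D1:**
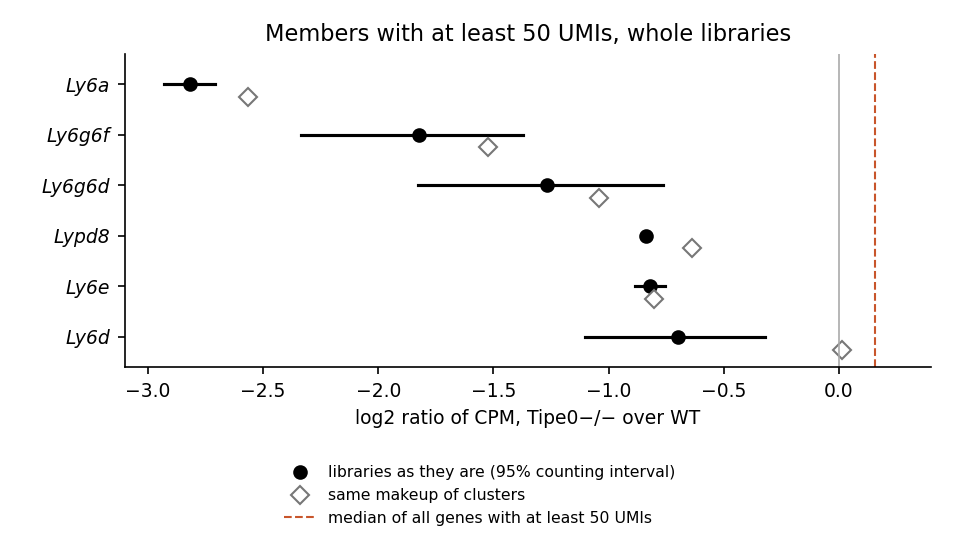
Log2 ratio of CPM, Tipe0-/- over WT, on the x axis for the 6 members with at least 50 UMIs; black points are the whole libraries with 95% counting intervals (too narrow to see for Lypd8), open diamonds the ratio after both libraries were weighted to the same makeup of clusters, and the dashed line the median of all genes (0.15). Ly6a lies furthest left at -2.82, and only the diamond of Ly6d (0.012, computed without the added 0.5) reaches 0.

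The makeup of the libraries moved some of these values. With both libraries weighted to the same share of each of the 13 clusters, Ly6a was at -2.56, Ly6g6f at -1.51, Ly6g6d at -1.03, Ly6e at -0.80 and Lypd8 at -0.64. Ly6d turned to 0.014. Without the lymphocyte-like cells the ratio of Ly6a was -2.83 and that of Ly6e -0.80.

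Ly6a was at least 2-fold lower in Tipe0-/- in all 7 named classes and both unnamed clusters. In WT the enterocyte-like cells had 573 CPM of Ly6a (4731 UMIs, interval 557 to 589), above every other group, and held 58.3% of its UMIs (54.0% in Tipe0-/-). Tuft-like (197 CPM), goblet-like (190 CPM) and Akr1c19-led cells (176 CPM) followed, and each overlapped the next in its interval. Cycling-like (122 CPM) and lymphocyte-like cells (89.3 CPM) likewise overlapped each other, as did the Dtl-led (46.1 CPM) and stem-like cells (36.4 CPM), and Paneth-like cells had 11.2 CPM (8.80 to 14.03). In Tipe0-/- the enterocyte-like cells were again at the top with 102 CPM (389 UMIs, interval 92.2 to 113). The other groups there ran from 32.4 CPM in lymphocyte-like cells, from 3 UMIs, through 27.8 in cycling-like and 23.5 in goblet-like to 3.20 in Paneth-like cells, and all neighbours in this order overlapped. As a class, enterocyte-like cells thus stood at the top in both libraries, while the tuft-like cells, second in WT, were sixth of 9 in Tipe0-/- (15.4 CPM). The goblet-like class pooled unlike clusters, and one of them, given below, overlapped the enterocyte-like class in WT.

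**Figure D2:**
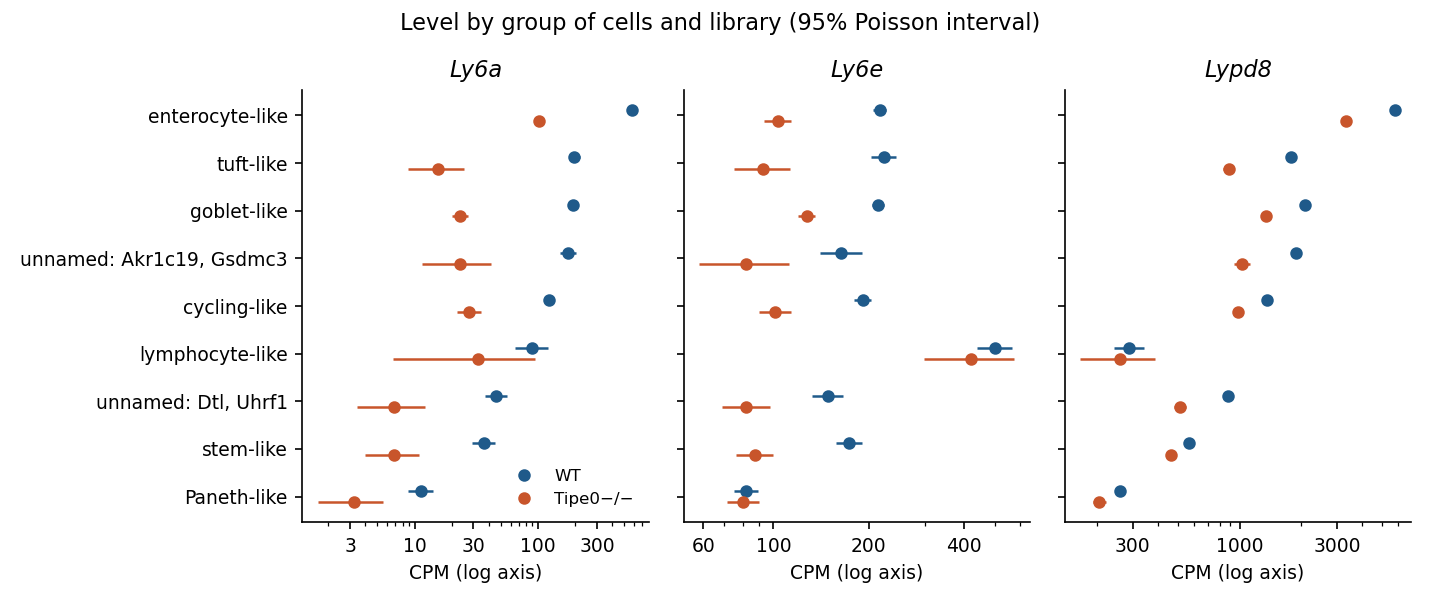
CPM (log axis) of Ly6a, Ly6e and Lypd8 in each group of cells, in WT (blue) and Tipe0-/- (orange), with 95% Poisson intervals, the groups ordered by Ly6a in WT. For Ly6a the libraries overlap only in lymphocyte-like cells, and for Ly6e in lymphocyte-like and Paneth-like cells.

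Within groups the log2 ratio of Ly6a was -3.63 in tuft-like cells (417 and 16 UMIs, interval -4.50 to -2.96), -3.02 in goblet-like (-3.25 to -2.80), -2.49 in enterocyte-like (-2.64 to -2.34), -2.38 in stem-like (-3.26 to -1.66), -2.13 in cycling-like (-2.49 to -1.81) and -1.75 in Paneth-like cells (-2.82 to -0.92). The Akr1c19-led and Dtl-led clusters had -2.87 and -2.69. In lymphocyte-like cells the ratio was -1.26 from 43 and 3 UMIs, and its interval (-3.79 to 0.18) held 0. The shares of all genes at least 2-fold lower within the same groups (genes with at least 20 UMIs there) were 3.9% in tuft-like, 2.24% in goblet-like, 2.22% in enterocyte-like, 1.96% in stem-like, 1.65% in cycling-like, 1.02% in Paneth-like and 8.83% in lymphocyte-like cells, 2.75% in the Akr1c19-led cluster and 1.84% in the Dtl-led cluster. The intervals of tuft-like and enterocyte-like cells did not overlap each other, but tuft-like cells also differed in T cell markers, which summed to 99.2 CPM there in WT and 1.93 CPM in Tipe0-/- (59.0 and 37.0 CPM in enterocyte-like cells). The part of T cell RNA in the tuft-like value was not tested.

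By cluster, Ly6a was at least 2-fold lower in 13 of 13. Among the enterocyte-like clusters WT had 706 CPM in the one led by Ms4a18 and the bile acid carrier Fabp6, 584 CPM in the one led by Slc40a1 and Apol10a, and 500 CPM in the one led by Apoa1 and Slc6a19. In Tipe0-/- these had 145, 117 and 69.7 CPM, in the same order. The goblet-like clusters were less alike. The one led by Ccl9 and Sct had 88.7 CPM in WT and 16.9 in Tipe0-/-, that led by Fcgbp and Zg16 had 248 and 22.6, and that led by Zg16 and Clca1 had 558 and 68.4. In WT the interval of the Zg16 and Clca1 cluster (522 to 594) overlapped that of the whole enterocyte-like class (557 to 589). The top place of enterocyte-like cells thus held for classes and not for every cluster.

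**Figure D3:**
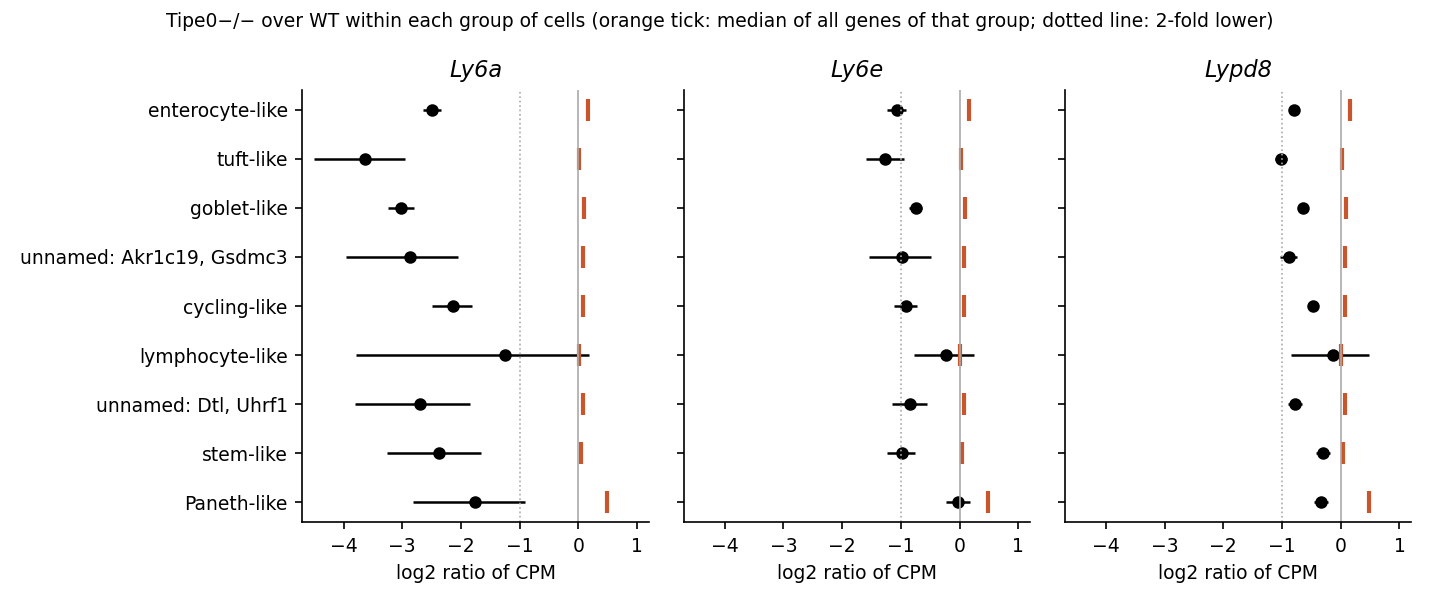
Log2 ratio of CPM, Tipe0-/- over WT, within each group of cells for Ly6a, Ly6e and Lypd8, with 95% counting intervals; orange ticks are the median of all genes in the same group and the dotted line marks 2-fold lower. Ly6a lies below the dotted line in every group, while Ly6e and Lypd8 lie around or above it and near 0 in lymphocyte-like cells.

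Ly6a was detected in fewer cells of the Tipe0-/- library, and positive cells carried fewer UMIs. Both measures fall when the level falls, so they are not separate results. With each cell thinned to 3000 UMIs, 63.97% of WT enterocyte-like cells had a Ly6a UMI (interval 60.8 to 67.1) against 17.5% in Tipe0-/- (14.1 to 21.2), and positive cells held 2.60 and 1.42 UMIs on average. Without thinning the shares were 78.7% and 32.3%, at median depths of 6471 and 5697 UMIs. Cells with more than 5 Ly6a UMIs made up 4.89% of WT and 0% of the 464 Tipe0-/- enterocyte-like cells, where a count of 0 allows up to 0.647%. In goblet-like cells 32.7% and 5.8% had a Ly6a UMI (61.5% and 20.3% at full depth), at median depths of 11184 and 11083 UMIs before thinning. In tuft-like cells 27.8% of 158 WT cells had one and 0 of 50 Tipe0-/- cells, which allows up to 6%, although 22.0% of the latter had one at full depth (median 17249.5 UMIs, 12087 in WT). Over all cells the shares were 33.5% and 7.33%, and 52.0% and 17.5% at full depth.

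**Figure D4:**
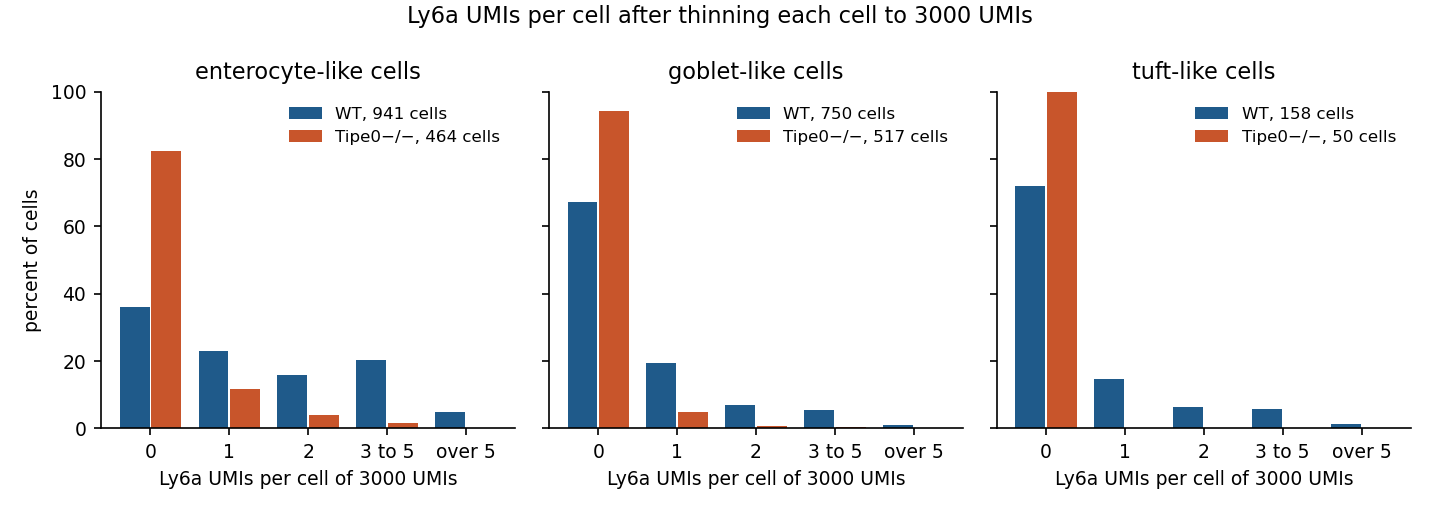
Percent of cells (y axis) with 0, 1, 2, 3 to 5 or over 5 Ly6a UMIs after thinning every cell to 3000 UMIs, in WT (blue) and Tipe0-/- (orange) enterocyte-like, goblet-like and tuft-like cells. In enterocyte-like cells the bar at 0 is 36.0% in WT and 82.5% in Tipe0-/-, and all 50 Tipe0-/- tuft-like cells are at 0.

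Free RNA in droplets sets a floor for such shares. Paneth-like cells had the lowest Ly6a level, and a Ly6a UMI was found after thinning in 5.32% of them in WT (3.01 to 8.62) and in 0.714% in Tipe0-/- (19.1% and 8.57% at full depth), at median depths of 20981.5 and 25782 UMIs before it. The shares of WT stem-like cells (9.8%, interval 6.71 to 13.7, median depth 6193) and of the Dtl-led cluster (11.1%, interval 7.89 to 15.2, median depth 4942.5) overlapped that of Paneth-like cells, so by this measure Ly6a in both was not separable from background. For every 1000 Lypd8 UMIs, WT cells held 99.6 Ly6a UMIs in enterocyte-like, 110 in tuft-like, 91.3 in goblet-like, 64.0 in stem-like and 43.2 in Paneth-like cells. In Tipe0-/- these were 30.7, 17.4, 17.5, 14.8 and 15.6.

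Ly6e was lower in most epithelial groups and close to equal in 2 others. In WT it was highest in lymphocyte-like cells (500 CPM, interval 439 to 568), followed by tuft-like (223), enterocyte-like (216) and goblet-like cells (214), which overlapped each other, and lowest in Paneth-like cells (81.9). Its log2 ratio was -1.26 in tuft-like (-1.60 to -0.95) and -1.07 in enterocyte-like cells (-1.23 to -0.91), -0.99 in stem-like, -0.98 in the Akr1c19-led, -0.92 in cycling-like, -0.85 in the Dtl-led and -0.74 in goblet-like cells. At least 2-fold lower levels were thus in 2 of 9 groups for Ly6e, against 9 of 9 for Ly6a. The 9 include Paneth-like cells, whose Ly6a share was read as background. The 9 further include stem-like and Dtl-led cells, whose WT shares after thinning overlapped that background while their WT CPM lay above it. They also include lymphocyte-like cells, where the interval of Ly6a held 0.

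In Paneth-like cells Ly6e had 549 UMIs (81.9 CPM) in WT and 301 (80.4 CPM) in Tipe0-/-, a log2 ratio of -0.03 (-0.23 to 0.18), below the 0.49 median of all genes in that class. In lymphocyte-like cells it had 241 and 39 UMIs (-0.23, interval -0.77 to 0.25). The share of cells with a Ly6e UMI after thinning was 40.1% and 21.6% in enterocyte-like cells and 29.4% and 27.9% in Paneth-like cells (66.4% and 40.7%, and 73.0% and 81.4%, at full depth). For Ly6e no group of these libraries lacked the gene, so no background share could be set.

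In every group Lypd8 differed by a smaller factor than Ly6a. Over the whole libraries its log2 ratio (-0.84) was close to that of Ly6e (-0.82). In WT it had 5749 CPM in enterocyte-like cells, 2085 in goblet-like, 1888 in Akr1c19-led, 1794 in tuft-like, 1364 in cycling-like, 876 in Dtl-led and 568 in stem-like cells. Lymphocyte-like and Paneth-like cells, which overlapped each other, had 289 and 259 CPM. Its log2 ratio was -1.02 in tuft-like cells (-1.13 to -0.92), -0.88 in Akr1c19-led, -0.79 in enterocyte-like (-0.82 to -0.76), -0.78 in Dtl-led, -0.64 in goblet-like, -0.47 in cycling-like, -0.33 in Paneth-like and -0.30 in stem-like cells, and the lymphocyte-like interval (-0.84 to 0.48) held 0.

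Most enterocyte-like cells had a Lypd8 UMI after thinning, 98.3% in WT and 91.2% in Tipe0-/- (99.1% and 93.5% at full depth). The mean of positive cells was 16.7 and 9.96 UMIs. The lower share came from the cluster led by Apoa1 and Slc6a19, with 96.3% in WT and 81.9% in Tipe0-/- (98.1% and 86.4% at full depth). In the other enterocyte-like clusters the shares after thinning were from 99.4% to 100% in both libraries, and 100% at full depth. Lymphocyte-like cells, which should lack Lypd8, had a UMI of it in 37.0% of cells in WT and 41.2% in Tipe0-/- after thinning. This share is read as background. At full depth it was 47.8% and 41.2% (medians of 4492 and 4315 UMIs). Paneth-like cells had one in 55.3% (49.3 to 61.2) and 45.0% (93.3% and 93.6% at full depth, medians of 20981.5 and 25782 UMIs). In WT that was above the lymphocyte-like share (27.1 to 47.7), and in Tipe0-/- the intervals overlapped. By CPM, however, WT Paneth-like cells (259, interval 247 to 272) were not above lymphocyte-like cells (289, interval 243 to 341). The 2 measures thus differed, and Lypd8 in Paneth-like cells was not separated from background.

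Ly6g6f and Ly6g6d were concentrated in tuft-like cells. These held 228 of the 251 WT UMIs of Ly6g6f (90.8%) and 40 of the 44 in Tipe0-/- (90.9%), and 83.4% and 71.8% of those of Ly6g6d. Within tuft-like cells Ly6g6f had 108 CPM in WT and 38.6 CPM in Tipe0-/- (log2 ratio -1.47, interval -2.005 to -0.99), and Ly6g6d 59.5 and 27.0 CPM (-1.12, interval -1.79 to -0.54). After thinning, 35.4% of WT tuft-like cells had a Ly6g6f UMI and 12% of Tipe0-/- tuft-like cells did (63.9% and 56% at full depth), whereas for Ly6g6d the shares were 19.0% and 16% (47.5% and 32%). Both neighbours were thus lower within the class as well as in the whole libraries, where tuft-like cells were fewer. All 5 members measured in tuft-like cells were at least 2-fold lower there, beside 3.9% of genes. Outside tuft-like cells Ly6g6f kept a ratio of -1.73 from few UMIs, and Ly6g6d was at -0.49, no longer 2-fold lower. With 50 Tipe0-/- tuft-like cells, from 1 library, these values rest on few cells.

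Ly6d came from a small number of cells. The 10 richest cells held 108 of 203 UMIs in WT (7 enterocyte-like and 3 lymphocyte-like cells) and 67 of 78 in Tipe0-/- (6 enterocyte-like and 4 lymphocyte-like), with up to 25 and 34 UMIs in a cell. Enterocyte-like cells as a class had 15.98 CPM in WT and 13.4 CPM in Tipe0-/- (-0.25, interval -0.75 to 0.22). In lymphocyte-like cells Ly6d was higher in Tipe0-/-, 83.0 CPM from 40 UMIs against 205 CPM from 19 UMIs (1.33, interval 0.44 to 2.13). At full depth these UMIs lay in 11 of 92 WT and 5 of 17 Tipe0-/- cells. An interval of UMI counts does not cover the spread between so few cells. In the lymphocyte-like class B cell and plasma cell markers summed to 1407 CPM in WT and 1826 CPM in Tipe0-/-, and T cell markers to 5480 and 2151 CPM. Their part in the Ly6d value was not tested. Without the 10 richest cells of each library the whole-library ratio of Ly6d was -2.38, so this value depended on which cells were counted.

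The members were also followed along the villus, by dividing the enterocyte-like cells of each library into 3 equal parts (tertiles) by a score of villus tip genes (12) minus villus base genes (9), none of them a member. The score's mean in the highest tertile was 2.35 in WT and 2.43 in Tipe0-/-. A tertile is a range of cells and not a type: 139 of 941 WT and 58 of 464 Tipe0-/- cells had a score within 0.1 of a boundary. Median UMIs of goblet, Paneth and stem markers per thinned cell were between 0 and 2 in every tertile of both libraries.

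Ly6d was found almost solely in the highest tertile, with 56.4 CPM in WT and 44.0 CPM in Tipe0-/- there, and 1.24 and 1.85 CPM in the lowest tertile. In Tipe0-/- a single cell held 34 of the 42 UMIs of the highest tertile, so that level rested on few cells. Ly6a had 589, 681 and 398 CPM from the lowest to the highest tertile in WT, and 116, 137 and 33.5 CPM in Tipe0-/-. Ly6e had 255, 207 and 171 CPM in WT and 130, 115 and 41.9 CPM in Tipe0-/-. Lypd8 had 4158, 7448 and 5830 CPM in WT and 2908, 4765 and 2186 CPM in Tipe0-/-.

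In the highest tertile all 3 of these members differed most between the libraries. The log2 ratio of Ly6a was -2.34, -2.30 and -3.55 (interval -4.13 to -3.06) from the lowest to the highest tertile. That of Ly6e was -0.97, -0.84 and -2.01 (-2.54 to -1.55), and that of Lypd8 was -0.52, -0.64 and -1.42 (-1.48 to -1.35). The intervals of the highest tertile did not overlap those of the lower ones for any of the 3. The apolipoprotein gene Apoa4 was at -0.18 in the highest tertile. It is one of the tip genes that made the score by which the cells were divided, so it gives no independent comparison. The lectin gene Reg3g was at -0.62, -1.02 and -0.90 from the lowest to the highest tertile. The bile acid carrier gene Fabp6 was at 0.55, 0.58 and 0.14. The median of all genes in the highest tertile was 0.16. Ly6d was at -0.35 there (-0.90 to 0.16), a value that rested on few cells. The part of cell makeup or ileal region in these tertile differences was not tested.

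**Figure D5:**
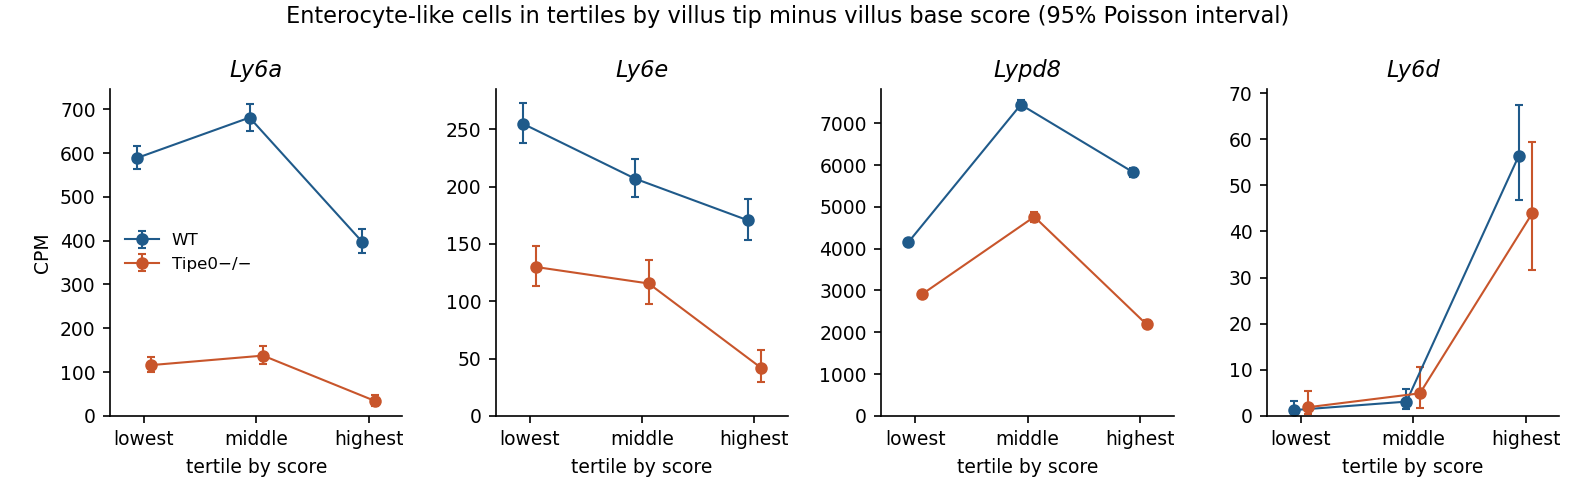
CPM (y axis, from 0) of Ly6a, Ly6e, Lypd8 and Ly6d in enterocyte-like cells divided into tertiles by villus tip minus villus base score within each library (WT blue, Tipe0-/- orange; 313 or 314 WT and 154 or 155 Tipe0-/- cells a tertile), with 95% Poisson intervals. Ly6a, Ly6e and Lypd8 are lower in Tipe0-/- in every tertile, and Ly6d rises only in the highest tertile of both libraries. In Tipe0-/- a single cell held 34 of the 42 Ly6d UMIs there.

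Members were partly found in the same cells. In WT enterocyte-like cells thinned to 3000 UMIs, 47.3% of the 602 cells with a Ly6a UMI also had Ly6e (43.3 to 51.4), against 27.1% of the 339 cells without one (22.5 to 32.2). Lypd8 averaged 18.5 UMIs in the former and 12.8 in the latter. In Tipe0-/- the same held at lower levels, with Ly6e in 35.8% of 81 cells with Ly6a (25.4 to 47.2) and 18.5% of 383 without (14.8 to 22.8), and Lypd8 at 13.5 and 8.14 UMIs. In WT tuft-like cells the shares with Ly6e were 38.6% of 44 and 39.5% of 114, with overlapping intervals. Lypd8 was there in 100% of the cells with Ly6a and in 80.7% of those without. It averaged 8.93 and 3.23 UMIs in them. Cells without a UMI of any member were 6.61% of WT and 14.5% of Tipe0-/- cells after thinning, and cells with UMIs of 3 members were 16.7% and 2.74%.

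Likeness of pattern was described over 25 profiles, the clusters of each library with at least 50 cells, among 7958 genes with at least 500 UMIs. The genes closest to Ly6a were the interferon-induced ubiquitin-like modifier Isg15 (Pearson r of log2(CPM + 1) 0.93), AA467197 (0.93) and Shisa5 (0.91). Closest to Ly6e were the chemokine Ccl5 (0.87), the nuclear body gene Sp110 (0.86) and the tetherin gene Bst2 (0.82). Lymphocyte-like cells, with the highest Ly6e (500 CPM in WT), entered from WT alone, as Tipe0-/- had 17 of them. Ccl5 was among the leading genes of that cluster, so this 1 profile may weigh heavily in the values of Ly6e. Closest to Lypd8 were Ms4a8a (0.98), Trim31 (0.97) and the ribosome-binding Rrbp1 (0.97). Among the members themselves r was 0.81 for Ly6a with Lypd8, 0.71 for Ly6a with Ly6e and 0.28 for Ly6e with Lypd8. The profiles share 2 libraries, their depth and the genotype difference itself, so these values only describe.

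Of the 40 other Ly6 and uPAR domain genes listed, 31 were in the matrices and 5 had at least 50 UMIs. Gml and Gml2, a pair in the chromosome 15 block, were at least 2-fold lower (153 and 28 UMIs, log2 ratio -1.76, interval -2.41 to -1.19, and 118 and 27 UMIs, -1.43, interval -2.11 to -0.84). Lynx1, which binds nicotinic receptors, was at -0.86 (59 and 20 UMIs). Plaur, the urokinase receptor, was at 0.47 (53 and 46 UMIs, interval -0.13 to 1.07) and Pate2 at 0.32 (36 and 28 UMIs). The median of the 5 was -0.86. Ly6i and Ly6c2, which share words with Ly6a, had 1 and 19 UMIs in WT and 0 and 3 in Tipe0-/-.

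Lists tied to the members in other ways were fixed with earlier results of these data known, so their counts are no independent evidence. Genes that make and attach the GPI anchor were not lower: of 27 measured 0 were at least 2-fold lower and the median was 0.17, close to the 0.15 of all genes. Among them Dpm3 was at 0.40, Pigp at 0.21, Pigt at 0.10 and Pigx at 0.10. Interferon-induced genes were lower in the main, with 28 of 48 at least 2-fold lower and a median of -1.15. The invariant chain Cd74 was at -1.27 (61015 and 15865 UMIs), the antiviral membrane protein Ifitm3 at -1.72 (23915 and 4542 UMIs), and the class II genes H2-Ab1 and H2-Aa at -1.31 and -1.52. Within enterocyte-like cells 17 of 47 interferon-induced genes were at least 2-fold lower (median -0.72), beside 2.22% of all genes there. Within tuft-like cells 25 of 39 were (-1.20), beside 3.9%. Within lymphocyte-like cells 3 of 21 were (-0.15), beside 8.83%, and 2 of the 21 were at least 2-fold higher.

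Interferon receptors and signalling genes had 2 of 14 at least 2-fold lower, Stat2 (-1.10) and the feedback inhibitor Socs1 (-1.63), with the receptor subunit Ifngr1 at 0.31 and a median of -0.08. Epithelial defence genes known to be induced by microbes had 6 of 15 at least 2-fold lower and a median of -0.92, among them the angiogenin Ang4 (-1.53), the serum amyloid Saa1 (-2.37), the resistin-like Retnlb (-3.74) and Duoxa2 (-1.07). Of 18 fetal-like and regeneration genes, with which Ly6a is often grouped, 9 were measured. Among these 0 were at least 2-fold lower and 0 at least 2-fold higher, 3 were below 0 (lowest -0.74), and the median was 0.29. The most abundant were Ccnd2 at 0.56, Krt7 at 0.11, Cldn4 at 0.43 and Areg at 0.29, while Ctgf had 0 UMIs.

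Villus tip genes had 0 of 10 at least 2-fold lower (median -0.01, with Apoa1 at 0.03, Krt20 at -0.53, Tmigd1 at 0.11 and Klf4 at -0.04), and villus base genes 0 of 9 (median 0.07, with Rps18 at 0.14, Rplp0 at 0.06, Rps3 at -0.04 and Rpl3 at 0.06). Epithelial markers had 0 of 10 (median -0.08, with Krt8 at -0.05, Lgals4 at -0.07, Epcam at 0.18 and Krt19 at -0.10). Dissociation and immediate early genes had 0 of 13 (median 0.16, with Jund at -0.13, Ier2 at 0.30, Fos at 0.28 and Zfp36 at 0.31).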

How the data were processed

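Cells were captured with 10x Genomics Single Cell 3′ v2 chemistry. The deposited files hold raw UMI counts per gene and cell, which the authors made per library with Cell Ranger (version 2.1.0 per the study's methods) on mm10. Genes carry the symbols paired with Ensembl IDs in the deposited files, and cells were used with no further filter; the lowest total was 3247 UMIs in WT and 3562 in Tipe0-/-. UMIs were summed per library, cluster or class and given as CPM with exact Poisson intervals. Log2 ratios added 0.5 to each sum, with intervals from the exact binomial distribution, for genes with at least 50 UMIs in the libraries together or 20 within a class. A gene was called lower at a log2 ratio of -1 or below. For shares, each cell was thinned without replacement to 3000 UMIs (0 cells were shallower), with Clopper-Pearson intervals, and a count of 0 was given a limit of 3 cells. Intervals cover counting error only.

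Cells were clustered in Seurat 5.3.0 (R 4.3.3) from variable genes by mean and dispersion, without the family and without 117 genes of the study's genotype comparison, on 14 principal components at resolution 0.8. A cluster was named "X-like" where at least 3 fixed markers of its best-scoring class were in at least 10% of its cells and 1.5 times more often than elsewhere. A difference from the study's names may come from this. Scrublet in scanpy 1.11.5 called 15 WT and 3 Tipe0-/- doublets, too few to have worked, so all cells were kept, and the 5% with the highest scores were left out as an alternative. The ratio step was tested on simulated data.

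Named genes were the members, Tnfaip8, Nnt and other family genes with at least 50 UMIs. Also named were the 3 genes most like each member with at least 500 UMIs. Of each other list up to 4 genes were named (most UMIs among those 2-fold lower, then 2-fold higher, then the rest). Ly6i, Ly6c2, Apoa4, Reg3g, Fabp6 and list genes at 0 UMIs were named after their values were seen. Some genes that this rule names are not reported here. The members, lists and tests were chosen with earlier results of these data known.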

Additional observations from a re-analysis of the deposited data

How the results depend on the processing

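Under all 6 other clusterings, which gave 7 or 8 classes, enterocyte-like cells stayed the top class for Ly6a in WT. Its 2-fold lower level in every named class held there too. In lymphocyte-like cells that rested on 3 or 4 Tipe0-/- UMIs. The interval there held 0 in every clustering but the one from 2000 variable genes (-4.75 to -1.46). Paneth-like and stem-like cells are counted with the background limit given above. The order below the top did not hold: at resolution 1.2 WT goblet-like cells had 295 CPM and tuft-like cells 187 CPM. For Lypd8 the highest class value reached 0.45 (integration), and for Ly6e 0.080 (without high doublet scores). The log2 ratios of members stayed below 0 under all alternatives except Ly6d with the same makeup of clusters (0.014). Values that left their counting interval follow. Scaled to the median of all genes, Ly6a was -2.97, Ly6e -0.97 and Lypd8 -0.99, and with totals free of mitochondrial and the 20 most abundant genes Lypd8 was -0.89. As a mean over cells of each cell's CPM, Ly6e was -0.94. On the log-normalized scale, which adds 1 to each scaled value and so shrinks low genes by construction, Ly6a was -1.33, Ly6e -0.55, Ly6d -0.050, Ly6g6f -0.090, Ly6g6d -0.053 and Lypd8 -0.80, and 1 member was at least 2-fold lower. With the same makeup of clusters Ly6a was -2.56 and Lypd8 -0.64. Without the 10 richest cells of each library Ly6a was -3.00, Ly6d -2.38, Ly6g6f -2.43, Ly6g6d -1.94 and Lypd8 -0.87. In cells thinned to 3000 UMIs Ly6e was -0.94 and Ly6g6f -2.74. Without tuft-like cells, an alternative chosen after seeing the data, Ly6g6d was -0.49. The cause of the other shifts was not tested. Of all genes, 284 were at least 2-fold lower, 477 with a minimum of 20 UMIs and 1237 with no minimum, as more low genes enter. The share of cells with a Ly6a UMI was 26.1 points lower in Tipe0-/-, and the difference was -34.5 without thinning and -15.0 for at least 2 UMIs. No paired analysis was possible because each genotype had 1 library. Few UMIs limited Ly6c1 and Ly6d, and few cells limited the lymphocyte-like and tuft-like values in Tipe0-/- (17 and 50 cells).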
